A study of Homo sapiens with 36 samples.

Results

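RNA-seq libraries of 2 human prostate cancer (PCa) cell lines grown alone were compared. DU145 is an androgen-insensitive line that the study counts among its osteolytic PCa (LPCa) lines, and C4-2B is a line of the LNCaP lineage that it counts among its osteoblastic PCa (BPCa) lines. The 6 libraries were chosen by their labels, 3 DU145 and 3 C4-2B mono-cultures without RANKL, of 36 libraries in the series. The other libraries come from the lines 22Rv1 and C4-2, from co-cultures with MG63 osteoblast-like cells behind a filter, from such co-cultures with RAW264.7 monocytic cells and RANKL, and from mono-cultures with RANKL, the cytokine that drives osteoclast formation. The labels number RANKL 50 with no unit. The MG63 co-cultures lasted 5 days, and no separate time is given for the other cultures in the sources used here. Each group is 1 established line. Both lines were kept in the same αMEM-based medium with serum during the experiment, but they had been maintained in different media and were seeded at different cell numbers, so the line cannot be told apart from these handling differences. The study describes its bar graphs as drawn from independent experiments, but neither it nor the labels say that the 3 libraries of a line came from separate cultures. The p-values then measure only the spread between these samples, which may be technical.

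Androgens activate genes of the secretory luminal prostate cell, among them the kallikreins that include prostate-specific antigen. FOXA1 and HOXB13 are transcription factors that take part in this response in luminal cells. Androgen-insensitive PCa lines are known for a different set of programmes, with growth factor receptors, AP-1 and YAP factors, and features of basal or mesenchymal cells, and such lines differ widely among themselves.

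The deposited totals were 29847346 to 36719047 estimated counts per library. A level in CPM is a gene's share of its library's counts times 1000000, so a floor of 3 counts was at most 0.1005 CPM. A gene was called when the edgeR quasi-likelihood test gave a Benjamini-Hochberg adjusted p under 0.05 and the lines differed by more than 2-fold. Of 12764 genes tested, 2738 were higher in DU145 (21.5%) and 2365 were higher in C4-2B (18.5%), 40.0% together. The libraries of the lines did not overlap in CPM for 87.1% of the genes tested, since replicates lay close together (biological coefficient of variation 5.78%). Non-overlap alone was therefore common, and the size of each difference is given with it. Log2 differences are DU145 minus C4-2B, so negative values mean a higher level in C4-2B.

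**Figure D1:**
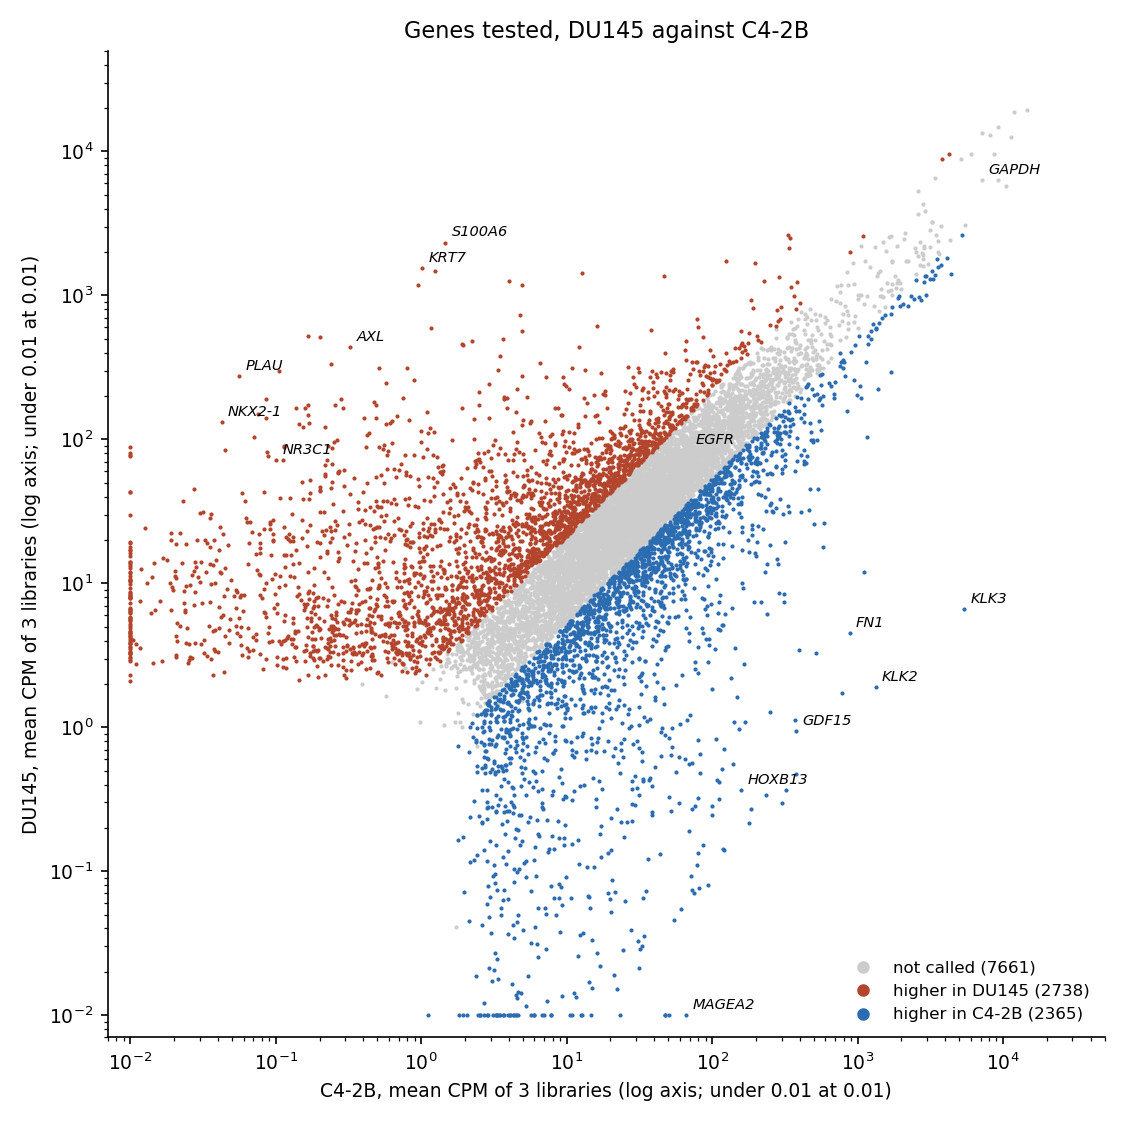
Each point is 1 of 12764 genes, with the mean CPM of the 3 C4-2B libraries on the x axis and of the 3 DU145 libraries on the y axis, both on log axes with levels under 0.01 drawn at 0.01. Red points (2738) were called higher in DU145, blue points (2365) higher in C4-2B, and the points of both colours spread from the grey band of genes not called down to the edge of each axis.

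Most of the genes of the androgen response that were tested were higher in C4-2B. In such bulk libraries fewer cells with a transcript and less of it in each cell cannot be told apart. Among 30 genes of the androgen axis (androgen-regulated genes and prostate secretory or surface proteins), 25 passed the filter of 100 counts in 1 library, 21 were higher in C4-2B (where 18.5% of all genes were) and 0 were higher in DU145. The median log2 difference of the list was -4.97, against 0.00 over all genes tested. A gene could pass the filter through one line alone, so counts among the members that passed are descriptions of each list.

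The kallikreins were among the largest differences of this list. KLK3, which encodes prostate-specific antigen, was at 5.81, 6.67 and 7.43 CPM in DU145 and at 5338, 5390 and 5529 CPM in C4-2B, 870-fold apart (log2 difference -9.76 ± 0.07, SE; edgeR adjusted p = 1.0e-18). KLK2, its neighbour and a related protease, was at 2.02, 1.05 and 2.68 CPM in DU145 and at 1274, 1303 and 1422 CPM in C4-2B, 732-fold apart. Neither gene was at 0 in a DU145 library, and no library of one line came near the other line. The transcripts of KLK2 and KLK3 are similar in sequence, so the split of reads between them is an estimate.

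The promoters of these 2 genes are shown because both hold letters of the androgen response element, an inverted repeat searched here on both strands as GAACA and GTNCT with any 4 bases between them. The sequences are from RefSeq on GRCh38.p14, plus strand, from 250 bases before to 50 bases after the gene start, at chr19:50854665-50854964 for KLK3 and chr19:50873189-50873488 for KLK2. Capitals mark the match, whose first base lies at position -169 from the start of KLK3 and at -175 from that of KLK2.
KLK3: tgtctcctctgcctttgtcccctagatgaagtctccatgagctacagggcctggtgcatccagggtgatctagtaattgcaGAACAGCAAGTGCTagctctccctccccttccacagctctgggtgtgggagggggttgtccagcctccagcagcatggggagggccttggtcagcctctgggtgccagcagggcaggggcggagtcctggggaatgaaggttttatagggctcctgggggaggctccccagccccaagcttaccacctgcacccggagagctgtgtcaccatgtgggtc
KLK2: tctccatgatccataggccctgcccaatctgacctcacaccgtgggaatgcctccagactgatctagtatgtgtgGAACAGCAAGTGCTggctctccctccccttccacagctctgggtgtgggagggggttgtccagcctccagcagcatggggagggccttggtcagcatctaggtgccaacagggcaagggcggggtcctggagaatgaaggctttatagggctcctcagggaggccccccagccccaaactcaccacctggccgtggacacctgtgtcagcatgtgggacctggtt
Among all 35116 promoters of the same length, 0.248% held such a match, and 0.211% of the 9955 promoters of genes tested. The share was 0.508% of the 1770 promoters matched to genes higher in C4-2B and 0.196% of the 2038 matched to genes higher in DU145. Of the 15 androgen-axis genes higher in C4-2B with a matched promoter, KLK3 and KLK2 were the 2 with a match. A match describes the letters of this window and is not evidence of binding.

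Other androgen-regulated genes differed to very different degrees. TMPRSS2, a serine protease of the luminal cell surface, was at 0.191, 0.391 and 0.314 CPM in DU145 and at 282, 296 and 334 CPM in C4-2B (log2 difference -10.03 ± 0.13). FOLH1, which encodes prostate-specific membrane antigen, was at 3.48, 2.59 and 3.81 CPM against 536, 499 and 521 CPM (-7.38 ± 0.08). KLK4 was at 1.28, 1.14 and 0.944 CPM against 381, 366 and 372 CPM (-8.45 ± 0.06). These 3 genes were close to absent in DU145. FKBP5, a co-chaperone of steroid receptors that glucocorticoids also induce, was well detected in both lines, at 70.2, 75.4 and 76.9 CPM in DU145 and 203, 201 and 207 CPM in C4-2B (-1.54 ± 0.04). Of the 4 tested members that were not called, NDRG1 was at 178, 191 and 201 CPM in DU145 and at 213, 277 and 267 CPM in C4-2B, and UAP1, ZBTB10 and PSCA differed by -0.56, -0.89 and 0.67. Members that did not pass the filter were STEAP4, HPGD, TMEFF2, MSMB and ABCC4, and for ABCC4 the table holds none of the principal transcripts.

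Transcription factors of the luminal prostate fell on the same side. Of 17 genes in this list, which also holds the steroid receptors, 10 passed the filter. Of these, 9 were higher in C4-2B (90.0%, against 18.5% of all genes) and 1 was higher in DU145 (10.0%, against 21.5%), with a median log2 difference of -3.06. HOXB13, a homeobox factor of the prostate, was at 0.379, 0.404 and 0.316 CPM in DU145 and at 156, 158 and 161 CPM in C4-2B (-8.82 ± 0.07). SPDEF, an ETS factor of secretory epithelium, was at 0.994, 0.933 and 0.972 CPM against 147, 154 and 156 CPM (-7.38 ± 0.08). FOXA1, which opens chromatin, was lower but well detected in DU145, at 34.3, 36.7 and 37 CPM against 247, 244 and 266 CPM (-2.90 ± 0.04). GATA2, a zinc finger factor, was at 33.5, 31.4 and 29.4 CPM in DU145 and at 264, 260 and 270 CPM in C4-2B (-3.16 ± 0.04).

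The gene of this list higher in DU145 was NR3C1, the glucocorticoid receptor. It was at 71.8, 69.7 and 72.7 CPM in DU145 and at 0.0364, 0.222 and 0.0443 CPM in C4-2B, a log2 difference of 9.48 ± 0.20 (edgeR adjusted p = 9.7e-15). It was high in every DU145 library and at or near the floor in every C4-2B library. ESR1, PGR, GATA3, ETV1, ERG, HOXA13 and HOXD13 did not reach 100 counts in a library.

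**Figure D2:**
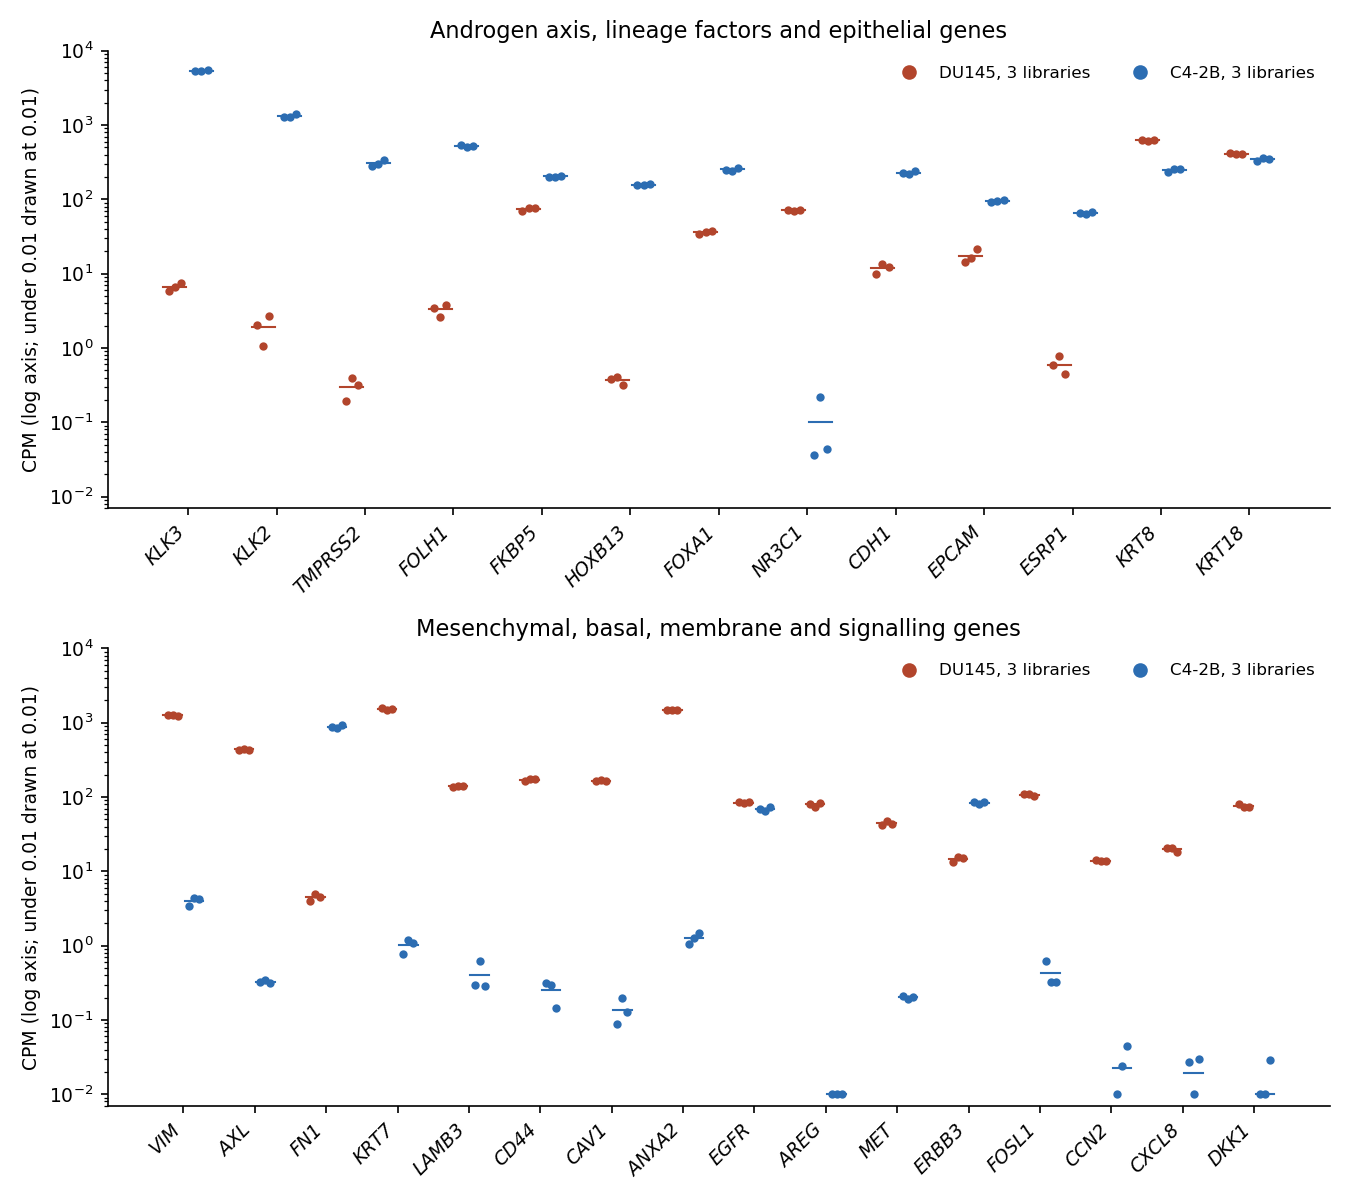
Points are the CPM of single libraries (log axis, levels under 0.01 drawn at 0.01), with 3 DU145 libraries in red, 3 C4-2B libraries in blue and a bar at each mean. KLK3 lies between 5338 and 5529 CPM in C4-2B and between 5.81 and 7.43 CPM in DU145, NR3C1, VIM and AXL show the reverse order, and EGFR, KRT8 and KRT18 are high in both lines.

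Most of the luminal epithelial genes were higher in C4-2B. Of 18 luminal keratins, adhesion genes and epithelial splicing regulators, 18 were tested, 13 were higher in C4-2B (72.2%, against 18.5% of all genes) and 4 in DU145 (22.2%, close to the 21.5% of all genes), with a median of -2.79. The keratin pair of simple epithelium was abundant in both lines. KRT18 was at 418, 408 and 406 CPM in DU145 and at 331, 361 and 352 CPM in C4-2B and was not called (0.15 ± 0.04). KRT8, its partner, was at 639, 615 and 620 CPM in DU145 and at 233, 258 and 255 CPM in C4-2B (1.24 ± 0.05).

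The junction genes were lower in DU145. CDH1, which encodes E-cadherin, was at 10, 13.6 and 12.3 CPM in DU145 and at 226, 221 and 241 CPM in C4-2B (-4.35 ± 0.07). EPCAM, an epithelial adhesion molecule, was at 14.5, 16.4 and 21.6 CPM against 92.1, 95.5 and 97.5 CPM (-2.53 ± 0.09). ESRP1, a regulator of epithelial splicing, was at 0.587, 0.768 and 0.441 CPM against 64.7, 62.6 and 68.3 CPM (-6.85 ± 0.09), with only some of its principal transcripts in the table. ESRP2, the related regulator, differed less and was at 25.7 to 28.4 CPM in DU145 (-1.66 ± 0.04). RAB25, a trafficking GTPase of epithelia, was at 0.0978, 0.253 and 0.22 CPM in DU145 and at 71, 66.1 and 70.3 CPM in C4-2B.

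Basal and mesenchymal genes were higher in DU145, each list with exceptions. Of 18 basal genes 12 passed the filter. Of these, 11 were higher in DU145 (91.7%, against 21.5% of all genes) and 1 in C4-2B (8.33%, against 18.5%), with a median of 5.24. The defining basal keratins KRT5 and KRT14 and the basal factor TP63 were among those that did not pass. They had levels of 0 to 0.194, 0 to 1.48 and 0.0884 to 0.574 CPM over the 6 libraries. KRT7, a keratin of ductal epithelium, was at 1587, 1488 and 1545 CPM in DU145 and at 0.767, 1.18 and 1.09 CPM in C4-2B, 1458-fold apart. LAMB3, a chain of laminin-332, was at 137, 143 and 140 CPM against 0.297, 0.623 and 0.29 CPM (8.35 ± 0.15). CD44, the hyaluronan receptor, was at 166, 173 and 177 CPM against 0.317, 0.298 and 0.146 CPM (9.26 ± 0.11). LAMA3, which pairs with LAMB3 in laminin-332, went the other way, at 26.7, 27.1 and 31 CPM in DU145 and 77.5, 73.9 and 78 CPM in C4-2B (-1.52 ± 0.06).

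In the mesenchymal list 12 of 18 genes passed the filter, 9 were higher in DU145 and 2 in C4-2B (median 4.0). VIM, an intermediate filament of mesenchymal cells, was at 1254, 1288 and 1238 CPM in DU145 and at 3.45, 4.33 and 4.28 CPM in C4-2B (8.21 ± 0.08). AXL, a receptor tyrosine kinase, was at 432, 443 and 435 CPM against 0.32, 0.34 and 0.315 CPM, 1269-fold apart. ZEB1, a repressor of epithelial genes, was at 17.1, 18.5 and 16.8 CPM against 1.63, 1.94 and 1.58 CPM (3.26 ± 0.13). All 3 were far above the other line in every DU145 library. FN1, which encodes the matrix protein fibronectin, was the reverse, at 3.94, 4.98 and 4.53 CPM in DU145 and 874, 855 and 921 CPM in C4-2B (-7.71 ± 0.08), and SNAI2, a repressor related to SNAI1, was also higher in C4-2B, 2.84-fold apart. CDH2 was at or under 0.0159 CPM in every library, so N-cadherin RNA was at the floor in both lines.

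Genes of caveolae, annexins and their S100 partners stood out by size. Of 15 genes 14 passed the filter, and these 14 were higher in DU145 (100%, against 21.5% of all genes tested). The median log2 difference was 9.13, or 8.70 with the 2 at the floor in C4-2B set to their counting ratio or bound. Members under 100 counts in every C4-2B library, among them S100A6, ANXA2, CAV1 and CAVIN3, passed through DU145 alone. The filter fixed their direction, and the count is a description. S100A6, a small calcium-binding protein, was at 2355, 2255 and 2364 CPM in DU145 and at 1.52, 1.08 and 1.78 CPM in C4-2B, 1486-fold apart. ANXA2, a membrane-binding annexin, was at 1473, 1482 and 1483 CPM against 1.04, 1.25 and 1.46 CPM, 1119-fold apart. CAV1, the main coat protein of caveolae, was at 166, 168 and 165 CPM against 0.0876, 0.199 and 0.127 CPM (10.19 ± 0.11). CAVIN3, which helps form caveolae, was at 44.1, 43.6 and 40.3 CPM in DU145 with 0 counts in every C4-2B library, at least 474-fold higher against a floor of 3 counts per library. The smallest difference was that of S100A11, at 1284, 1248 and 1242 CPM against 228, 228 and 229 CPM (2.37 ± 0.04). TGFBI from the mesenchymal list, a secreted matrix protein, had a difference of similar size, at 513, 523 and 498 CPM in DU145 and 0.32, 0.0889 and 0.194 CPM in C4-2B (11.14 ± 0.13).

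Of the ERBB and MET receptors, MET was higher in DU145 and ERBB3 in C4-2B. EGFR, the receptor of the epidermal growth factor family, was at 85.2, 82.6 and 85.1 CPM in DU145 and at 68.6, 64.5 and 74.4 CPM in C4-2B. The libraries did not overlap, but the difference of 0.20 ± 0.04 was under the 2-fold limit. ERBB2 was at 14.4, 19.9 and 29 CPM in DU145 and at 21.7, 28.6 and 22.8 CPM in C4-2B, where the lines overlapped and the test was not passed (edgeR adjusted p = 0.25). ERBB3, which signals as a partner of ERBB2, was at 13.2, 15.8 and 15 CPM in DU145 and at 84.6, 81.2 and 84.5 CPM in C4-2B (-2.60 ± 0.05). MET, the receptor of hepatocyte growth factor, was at 41.6, 47.4 and 43.6 CPM in DU145 and at 0.209, 0.192 and 0.202 CPM in C4-2B (7.60 ± 0.13).

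Most of the EGFR ligands measured differed more than the receptor. AREG (amphiregulin) was at 81.8, 73.8 and 84.1 CPM in DU145 and had 0 counts in all 3 C4-2B libraries, at least 889-fold higher. EREG was at 45.7, 47.5 and 49.7 CPM against 0.185, 0.379 and 0.325 CPM (7.25 ± 0.16). TGFA was at 19.1, 19.3 and 19.2 CPM against 0.225, 0.203 and 0.276 CPM (6.27 ± 0.14). HBEGF showed the same order with a smaller difference (4.86 ± 0.08), while EGF itself was low in both lines and higher in C4-2B, at 5.36 to 6.34 CPM against 1.45 to 2.38 CPM (-1.63 ± 0.20). Over the list, 11 of 15 genes passed the filter, 7 were higher in DU145 (63.6%, against 21.5% of all genes tested) and 2 in C4-2B (18.2%, close to the 18.5% of all genes).

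For AP-1, YAP and their target genes, 18 of 19 genes passed the filter. Of these, 13 were higher in DU145 (72.2%, against 21.5% of all genes tested) and 0 in C4-2B (against 18.5%), with a median of 3.15. FOSL1, an AP-1 subunit, was at 110, 109 and 103 CPM in DU145 and at 0.615, 0.326 and 0.325 CPM in C4-2B (7.83 ± 0.15). The subunits JUN, JUNB and JUND were well expressed in both lines and not called, with log2 differences of 0.69, 0.57 and 0.06. YAP1, a coactivator of TEAD factors, was at 97.5, 102 and 100 CPM in DU145 and at 55.5, 55.6 and 57.7 CPM in C4-2B, a difference of 0.74 ± 0.03 that was under 2-fold. Its relative WWTR1 (TAZ) was at 77.7, 79.4 and 79.3 CPM against 4.01, 3.07 and 4.27 CPM (4.29 ± 0.10). The classical YAP target CCN1 was at 228, 220 and 227 CPM against 4.33, 4.5 and 4.83 CPM (5.54 ± 0.05). CCN2, another such target, was at 14.2, 13.7 and 13.9 CPM in DU145 with 2 counts in all C4-2B libraries together, a ratio of 697 (95% counting interval 192 to 5758). Each of these target genes was high in every DU145 library.

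The CCN2 promoter is shown because TEAD factors bind GGAATG, which occurs 3 times in it, at positions -169, -104 and -95 from the start. It lies at chr6:131951323-131951622 (RefSeq, GRCh38.p14, minus strand, printed 5′ to 3′ along the gene), with the matches in capitals.
CCN2: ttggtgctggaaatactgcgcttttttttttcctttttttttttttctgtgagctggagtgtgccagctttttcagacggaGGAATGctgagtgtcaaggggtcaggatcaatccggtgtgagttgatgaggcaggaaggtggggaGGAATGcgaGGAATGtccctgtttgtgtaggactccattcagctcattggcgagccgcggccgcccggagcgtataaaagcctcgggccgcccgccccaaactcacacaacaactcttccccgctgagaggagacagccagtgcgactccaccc
At least 1 match on either strand was present in 14.0% of all promoters, in 14.7% of those of genes tested, in 17.6% of those of genes higher in DU145, in 14.9% of those of genes higher in C4-2B, and in 5 of 9 matched promoters of the AP-1 and YAP genes higher in DU145. The AP-1 letters TGANTCA were present in 7.71% of all promoters, 6.82% of those of genes tested, 10.1% of those higher in DU145 and 7.51% of those higher in C4-2B. These shares are descriptions, with no test.

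The 21 cytokines and chemokines listed summed to 408 to 425 CPM in the DU145 libraries and 9.67 to 10.8 CPM in the C4-2B libraries. The 12 that passed the filter were higher in DU145 (100%, against 21.5% of all genes tested). The median log2 difference was 6.87, or 6.57 with the 6 members at the floor in C4-2B set to their counting ratio or bound. These 6 passed through DU145 alone, and so did at least CSF1, which was under 100 counts in every C4-2B library. The filter fixed the direction of such members, and the count is a description. CSF1, which supports macrophages and osteoclast precursors, was at 152, 148 and 161 CPM in DU145 and at 1.01, 1.1 and 1.15 CPM in C4-2B (7.06 ± 0.11). CXCL8, a neutrophil chemokine, was at 20.8, 20.9 and 18.3 CPM with 2 counts in the C4-2B libraries together, a ratio of 998 (95% counting interval 276 to 8249). IL6, an inflammatory cytokine that promotes bone resorption, was at 13.6, 12.4 and 12.2 CPM with 0 counts in C4-2B, at least 142-fold higher. The lines did not overlap for any of these 3. Of the members that did not pass, TNF and IL1B were at or under 0.14 and 0.189 CPM in every library.

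The CXCL8 and IL6 promoters are shown because both hold letters that NF-kB factors bind, searched as GGNNTTTCC on both strands. These letters were chosen after both promoters had been read. The windows are chr4:73740319-73740618 for CXCL8 and chr7:22726950-22727249 for IL6 (RefSeq, GRCh38.p14, plus strand). Capitals mark the match at position -91 in CXCL8 and -72 in IL6, and in CXCL8 also an AP-1 match at -137. None of the matches overlapped another.
CXCL8: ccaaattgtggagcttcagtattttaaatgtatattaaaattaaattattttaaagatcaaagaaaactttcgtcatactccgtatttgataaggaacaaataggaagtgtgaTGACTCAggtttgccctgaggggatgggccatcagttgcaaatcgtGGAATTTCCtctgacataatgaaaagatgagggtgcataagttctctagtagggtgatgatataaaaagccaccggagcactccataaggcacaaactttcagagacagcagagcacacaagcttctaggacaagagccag
IL6: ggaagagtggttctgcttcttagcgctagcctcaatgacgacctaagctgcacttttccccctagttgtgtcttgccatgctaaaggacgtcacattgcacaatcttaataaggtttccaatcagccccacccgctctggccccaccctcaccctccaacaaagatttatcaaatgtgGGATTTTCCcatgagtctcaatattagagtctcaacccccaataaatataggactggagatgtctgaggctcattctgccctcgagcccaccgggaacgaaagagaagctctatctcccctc
The letters were present in 6.26% of all promoters, in 9.04% of those of genes tested, in 10.5% of those higher in DU145 and in 8.70% of those higher in C4-2B. Of the 8 matched promoters of cytokine genes higher in DU145, 7 held them, and these include CXCL8 and IL6, from which the letters were chosen.

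Since the study sets LPCa against BPCa lines, factors that act on bone were listed by their known action. In a list of 18 factors that promote resorption or block WNT and BMP signals in bone, 9 passed the filter. Of these, 8 were higher in DU145 (88.9%, against 21.5% of all genes) and 1 in C4-2B (11.1%, against 18.5%), with a median of 8.33. The 5 at the floor in C4-2B passed through DU145 alone. So did at least CSF1 and MMP14, which were under 100 counts in every C4-2B library, so the filter fixed the direction of all these. IL6, IL11, CSF1 and CXCL8 of this list are also in the cytokine list. DKK1, a secreted WNT antagonist, was at 81.5, 72.9 and 74.1 CPM in DU145 with 1 count in the C4-2B libraries together, a ratio of 7625 (95% counting interval 1368 to 301201). MMP14, a membrane-bound matrix protease, was at 37.8, 38.8 and 40.1 CPM against 0.132, 0.0637 and 0.125 CPM (8.33 ± 0.27). PTHLH, the parathyroid hormone-related protein gene, was at 0.581, 1.45 and 1.11 CPM in DU145 and at 0.247, 0.148 and 0.225 CPM in C4-2B, and TNFSF11, which encodes RANKL, was at or under 0.227 CPM in every library. Neither reached 100 counts in a library. JAG1, a Notch ligand, was the member higher in C4-2B, at 7.71, 7.23 and 7.59 CPM against 0.827, 0.993 and 0.903 CPM (-3.14 ± 0.17).

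Of 14 factors with a known osteoblastic action 10 passed the filter, 5 were higher in DU145 (50%, against 21.5% of all genes) and 3 in C4-2B (30%, against 18.5%), with a median of 1.14. The 3 higher in C4-2B were KLK3, ERBB3 (a secreted form of which acts on osteoblasts) and IGF1. IGF1 (insulin-like growth factor 1) was at 38.7, 41.9 and 34.9 CPM in C4-2B and at 0.192, 0.384 and 0.201 CPM in DU145 (-7.32 ± 0.17), with some of its principal transcripts in the table. Higher in DU145 were PLAU, which encodes urokinase, at 264, 278 and 286 CPM with 5 counts in C4-2B (ratio 5500, 95% counting interval 2357 to 16941), TGFB1, TGFB2, TGFB3 and FGF2. TGFB1, the main form of transforming growth factor beta, was at 65.9, 60.8 and 59.3 CPM against 0.745, 0.42 and 0.593 CPM (6.60 ± 0.11). PDGFA and PDGFB were not called, with differences of 0.89 and 0.40. Endothelin (EDN1), BMP2, BMP4 and FGF1 did not pass the filter in either line.

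**Figure D3:**
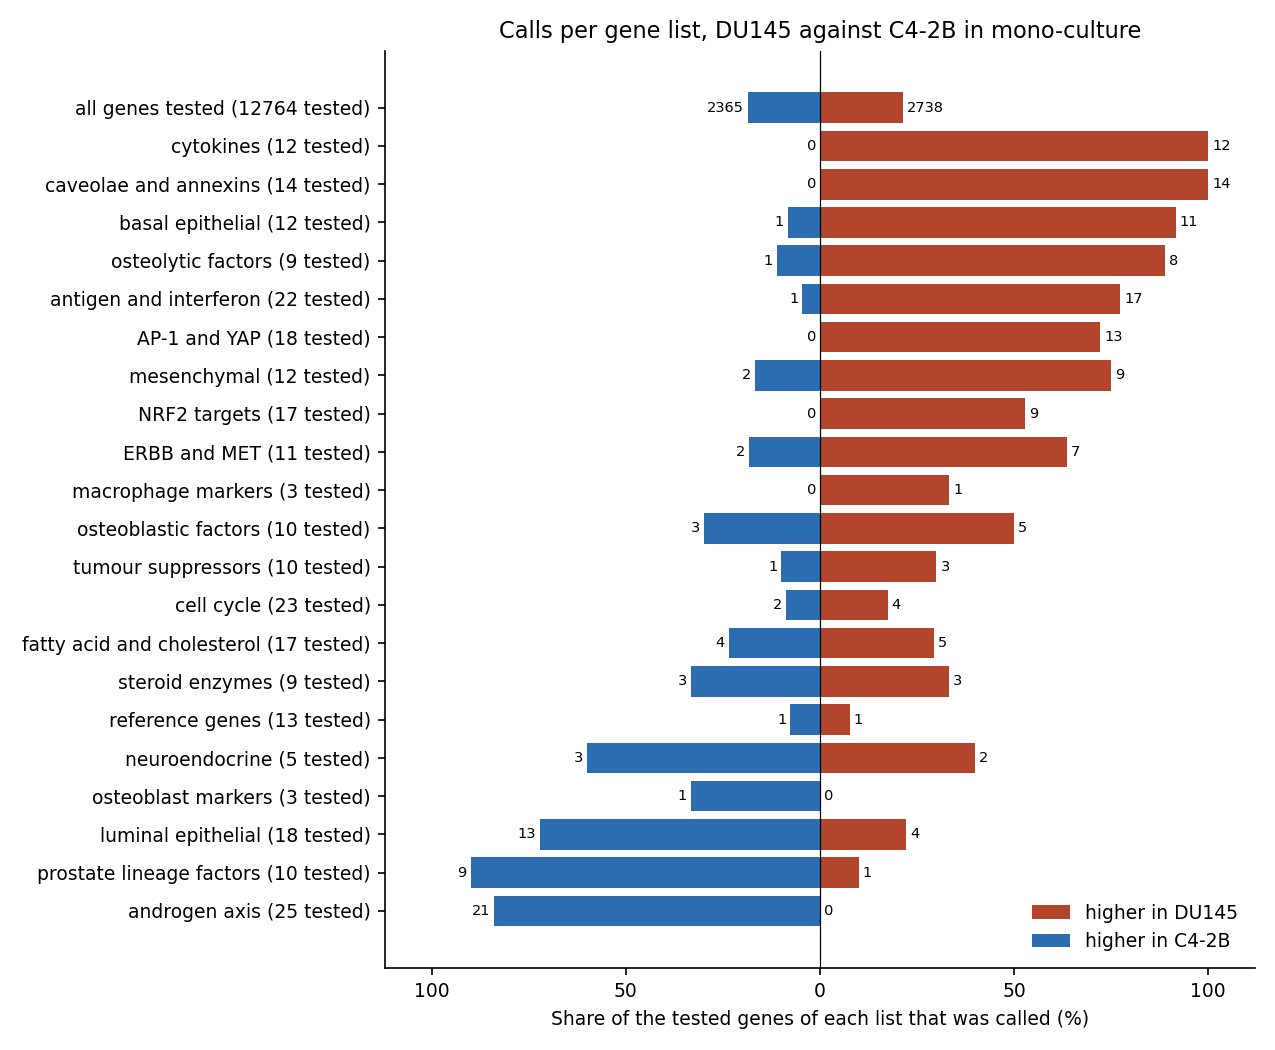
Bars give the share of the tested genes of each list (x axis, %) called higher in DU145 (red, right) or higher in C4-2B (blue, left), with the number of genes at the bar's end and all 12764 genes tested in the top row. The caveolae and annexin list (14 of 14) and the cytokine list (12 of 12) lie wholly to the right, and the androgen axis (21 of 25) and the prostate lineage factors (9 of 10) lie mostly to the left.

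Most of the MHC class I and interferon genes tested were higher in DU145. Of 25 genes in this list 22 were tested. Of these, 17 were higher in DU145 (77.3%, against 21.5% of all genes), 1 in C4-2B (4.55%, against 18.5%) and 4 were not called. Their median was 2.10, and ISG15 was not analysed here. HLA-B was at 314, 307 and 319 CPM in DU145 and at 27.6, 34.2 and 31 CPM in C4-2B (3.26 ± 0.06). The HLA genes are near-identical and vary between genomes, so their counts by transcript are uncertain. JAK1, a kinase required for interferon signalling, was at 45.2, 49.7 and 48.3 CPM in DU145 and at 2.8, 3.45 and 3.5 CPM in C4-2B (3.80 ± 0.13). IFIT2, an interferon-induced gene, was at 21.4, 19.9 and 24.6 CPM against 0.145, 0.111 and 0.0295 CPM (7.78 ± 0.29). MX1 and IFITM3 were not called, with differences of 0.60 and 0.58. The member higher in C4-2B was BST2 (tetherin), at 6.95, 8.86 and 8.94 CPM against 0.962, 0.85 and 0.583 CPM.

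In a list of 10 genes, tumour suppressors and GSTP1, 3 were higher in DU145 (30% of the list) and 1 in C4-2B (10%), near the 21.5% and 18.5% over all genes tested. CDKN2A, an inhibitor of CDK4 and CDK6, was at 171, 167 and 156 CPM against 22.1, 15.4 and 19.5 CPM (3.02 ± 0.13). GSTP1, a glutathione transferase, was at 12.1, 10.1 and 12.1 CPM in DU145 with 2 counts in C4-2B, a ratio of 573 (95% counting interval 158 to 4737), with some principal transcripts in the table. RB1 (0.39), which restrains the cell cycle, was not called, and RNA level says nothing of mutations. BRCA2 was called higher in C4-2B at -1.03 ± 0.11 and lay within 2-fold without DU145 replicate 2 (-0.94) or without C4-2B replicate 1 (-0.97).

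Metabolic lists were mixed. Of 17 NRF2 target genes, which act in redox and glutathione metabolism, 9 were higher in DU145 (52.9%, against 21.5% of all genes) and 0 in C4-2B (against 18.5%). Their median was 1.06, and the list was led in level by NQO1 at 2481, 2460 and 2572 CPM against 355, 331 and 338 CPM (2.79 ± 0.03). Of 17 tested genes of fatty acid and cholesterol synthesis, 5 were higher in DU145 (29.4%) and 4 in C4-2B (23.5%), near the shares over all genes tested. Among them, FASN (-2.17) and ELOVL5 (-2.22), of fatty acid synthesis, and the regulator SREBF1 (-3.01) were higher in C4-2B, and HMGCS1 (1.45), SQLE (2.57) and IDI1 (1.37), of cholesterol synthesis, were higher in DU145. ELOVL6, which lengthens fatty acids, was also higher in DU145 (3.18). FASN was at 117, 110 and 113 CPM in DU145 and at 480, 420 and 536 CPM in C4-2B, and the lines did not overlap.

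Of 20 steroid enzymes 9 passed the filter, with 3 higher in each line (33.3%, against 21.5% of all genes for DU145 and 18.5% for C4-2B). AKR1C3, which makes testosterone from a precursor, was at 30.6, 26.6 and 37.4 CPM in DU145 and at 0.0868, 0.419 and 0.0971 CPM in C4-2B (7.25 ± 0.34), and its near-identical relatives make its counts uncertain. CYP11A1, the first enzyme of steroid synthesis, was at 6.71, 7.63 and 8.03 CPM in C4-2B and at 0.111, 0.223 and 0.0697 CPM in DU145. Of 16 neuroendocrine genes 5 passed the filter, and the defining markers CHGA and SYP stayed under 1.02 and 1.78 CPM at most. ENO2 and NKX2-1 were higher in DU145, and SYT4, ONECUT2 and DDC were higher in C4-2B. Of 23 cell cycle genes 4 were higher in DU145 (MKI67, TOP2A, AURKA and BUB1) and 2 in C4-2B (CDK1 at -1.42 and CDK4 at -1.34), and the median was -0.14. These shares of 17.4% and 8.70% were not above the 21.5% and 18.5% over all genes tested. MKI67, a marker of cycling cells, was at 123, 122 and 118 CPM in DU145 and at 47.2, 41.7 and 49.7 CPM in C4-2B, 2.47-fold apart.

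Genes often used as references bound the scale of these statements. Of 13 such genes 11 were not called (median -0.10), B2M was higher in DU145 (1.60 ± 0.04) and PGK1 in C4-2B (-1.59 ± 0.16). Markers of osteoblast-like cells, the partner cells of other cultures, summed to 10.3 to 13 CPM in the DU145 libraries and 10.0 to 11.5 CPM in the C4-2B libraries. Of 12 such markers 3 passed the filter, 1 (RUNX2) was higher in C4-2B and 0 were higher in DU145, and IBSP, POSTN and LUM were at or under 3 counts in every library, with at most 0.089 CPM. Markers of macrophages summed to 56.9 to 67.7 CPM in DU145 and 31.4 to 32.9 CPM in C4-2B, of which CD68, a lysosomal protein, made up 45.4 to 55.3 and 21.8 to 23.8 CPM. CD68 was the 1 of 3 tested macrophage markers called (1.06 ± 0.08), and without DU145 replicate 2 it lay within 2-fold (0.99). TYROBP and AIF1 were at 0 CPM in all 6 libraries.

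Genes read in one line and at the floor in the other were listed without a test, as at least 10 CPM on average in one line and at most 3 counts in every library of the other. There were 72 such genes in DU145 and 27 in C4-2B. The highest in DU145 were PLAU at 264, 278 and 286 CPM and NKX2-1, a lung and thyroid transcription factor, at 131, 131 and 134 CPM. NKX2-1 had 4 counts in the C4-2B libraries together (ratio 3301, 95% counting interval 1289 to 12119). EFEMP1, a secreted matrix protein, was at 78.8, 78.8 and 77.6 CPM with 0 counts in C4-2B, at least 870-fold higher. VSIR, an immune checkpoint protein, was at 46.2, 45 and 45.2 CPM. FABP5P7, a processed pseudogene, and NDUFC2-KCTD14, a read-through gene, share sequence with expressed genes and are uncertain.

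In C4-2B the highest included cancer-testis genes, which are normally silent outside the germ line, and prostate genes. MAGEA2 was at 67.9, 62.1 and 67.9 CPM with 0 counts in DU145, at least 701-fold higher, and CSAG1, its neighbour on chromosome X, at 53.5, 57.2 and 53.9 CPM. GAGE12F and GAGE12G were each at 48.1, 50.7 and 43.7 CPM with 0 counts in DU145. Their equal values mark near-identical copies among which reads were divided, and MAGEA2 also has close copies. PRAC1, a gene of prostate and distal colon, was at 51.1, 54.4 and 47 CPM with 0 counts in DU145, at least 537-fold higher. Of the 72 genes on in DU145, 4 were at 10 CPM or more in 22Rv1 and 0 in C4-2, and 46 were at or under 3 counts in every C4-2 library. Of the 27 on in C4-2B, 23 were at 10 CPM or more in C4-2, the line C4-2B was derived from, and 6 in 22Rv1.

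A strict floor left out the most abundant genes. Of 1603 genes at 100 CPM or more in C4-2B, 0 were at or under 3 counts in every DU145 library, and the lowest DU145 level was 0.098% of that in C4-2B. Of 1675 genes at that level in DU145, 2 were at the floor in C4-2B, and the lowest C4-2B level was 0.02%. The source of the KLK3 and KLK2 counts in DU145 was not tested.

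Among genes above the floor in all 6 libraries (at least 10 counts each), the 5 largest differences toward DU145 were those of S100A6, KRT7, AXL, UCHL1 and ANXA2. UCHL1, a ubiquitin hydrolase, was at 1194, 1145 and 1199 CPM in DU145 and at 1.14, 1.05 and 0.653 CPM in C4-2B, 1152-fold apart. Toward C4-2B they were those of KLK3, KLK2, MME, GDF15 and KLK4. MME, the cell-surface peptidase neprilysin, was at 795, 768 and 797 CPM in C4-2B and at 1.42, 1.62 and 2.16 CPM in DU145, 484-fold apart. GDF15, a secreted stress-induced factor, was at 303, 415 and 413 CPM in C4-2B and at 1.13, 0.709 and 0.964 CPM in DU145, 423-fold apart, and its C4-2B libraries were more spread than those of the other 4.

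The table lists transcripts, so the share of each transcript in its gene's count was compared over 7596 genes with at least 300 counts in each library. The transcript with the largest share differed between the lines for 1020 genes. For 35 of them (0.461% of 7596) a share shifted by at least 50 percentage points without overlap between the lines, and 15 of these 35 were not called at gene level. PRKACB, a catalytic subunit of protein kinase A, had 93.2%, 80.5% and 85.9% on ENST00000370689 in DU145 and 55.8%, 54.4% and 62.7% on ENST00000370685 in C4-2B. Both forms are protein coding.

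TNFRSF19, a receptor of the tumour necrosis factor family, had 85.2%, 88.4% and 86.2% of its count on the coding transcript ENST00000382263 in C4-2B. In DU145 97.6%, 98.3% and 99.1% lay on ENST00000464735, which is annotated as a processed transcript without a coding frame, so the DU145 gene count was mainly not of the coding form. R3HCC1 read 84.5%, 84.6% and 87.3% on ENST00000411463 in C4-2B and 0%, 0% and 1.26% there in DU145. HLA-B also met the rule, with 2.36%, 2.09% and 2.21% of its count on ENST00000425848 in DU145 and 89.3%, 91.8% and 88.2% there in C4-2B, and its shares are uncertain for the reason given above. TPM1, a tropomyosin that was chosen after its values were seen, had its largest share on ENST00000358278 in DU145 and on ENST00000404484 in C4-2B. These shares are kallisto estimates, and no test was made of them.

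**Figure D4:**
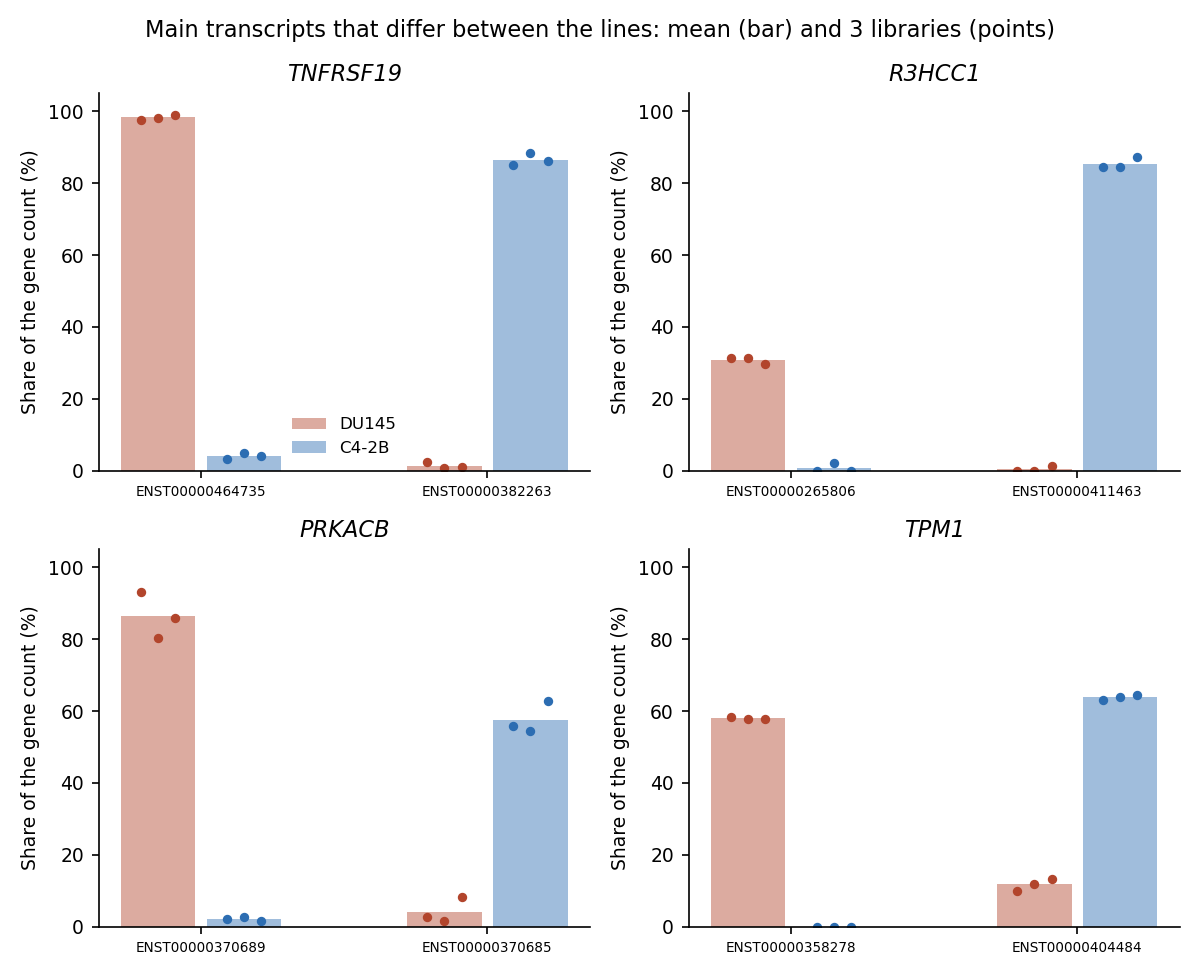
Bars are the mean share of a gene's count (y axis, %) held by the main transcript of DU145 (left pair) and of C4-2B (right pair), with points for the 3 libraries of each line, DU145 in red and C4-2B in blue. For TNFRSF19, R3HCC1, PRKACB and TPM1 the points of both lines lie far apart for both transcripts, and TPM1 was added after its values were seen.

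The same contrast was read in 3 other culture types, with 2 libraries of each line per type at totals of 10418452 to 15418211 counts. These libraries took no part in the mono-culture contrast. The library of DU145 with MG63 numbered 2 stood apart from the others of its line. With RANKL, 19.3% of 10643 genes were higher in DU145 and 16.7% in C4-2B (36% together), and of the 3909 genes called in mono-culture and tested here 3302 (84.5%) were called the same way and 2 the opposite way. In co-culture with MG63 19.4% of 10816 genes were higher in DU145 and 17.3% in C4-2B (36.7% together), with 3328 of 3981 (83.6%) the same way and 4 the opposite way, and 3460 the same way without the library that stood apart. In co-culture with RAW264.7 cells and RANKL 19.6% of 10968 genes were higher in DU145 and 17.0% in C4-2B (36.7% together), with 3441 of 4059 (84.8%) the same way and 2 the opposite way. The difference between lines itself differed from that in mono-culture (edgeR interaction test, more than 2-fold) for 424 genes with RANKL (3.99%), 334 with MG63 (3.09%) and 481 with RAW264.7 and RANKL (4.39%). These 3 comparisons share the mono-cultures.

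EPCAM was a gene whose difference between the lines was called alone but not with RANKL. In DU145 it was at 14.5, 16.4 and 21.6 CPM alone and at 12 and 20.5 CPM with MG63, but at 84.5 and 89.9 CPM with RANKL and at 86.1 and 79.4 CPM with RAW264.7 and RANKL. All 4 DU145 libraries with RANKL were thus above all 5 without it. In the 9 C4-2B libraries it was between 79 and 107 CPM. The difference between the lines of -2.53 alone and -2.79 with MG63 was -0.04 with RANKL and -0.07 with RAW264.7 and RANKL, an interaction of 2.50 and 2.47 (edgeR adjusted p = 1.8e-10 and 2.0e-10).

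Other luminal and lineage genes had called interactions of the same sign while DU145 stayed on its own side of C4-2B. ESRP1 was at 0.441 to 0.768 CPM in DU145 alone and at 3.42 and 3.41 CPM with RANKL, against 47.5 and 45.6 CPM in C4-2B with RANKL (interaction 2.98). SPDEF was at 0.933 to 0.994 CPM alone and at 5.91 and 5.49 CPM with RANKL (interaction 2.85). FOXA1 was at 34.3 to 37 CPM alone and at 64.3 and 62.4 CPM with RANKL (1.09), and KRT19, already higher in DU145, was at 154 to 173 CPM alone and at 457 and 464 CPM with RANKL (1.81). CDH1 was at 10 to 13.6 CPM alone and at 24.7 and 21.7 CPM with RANKL, where the interaction of 0.91 was under 2-fold. KLK3 in DU145 was at 5.31 and 7.13 CPM with RANKL and at 5.81 to 7.43 CPM alone, and in C4-2B it was at 3286 and 3204 CPM with RANKL and at 5338 to 5529 CPM alone, an interaction of 0.65 that was under 2-fold. With MG63, without RANKL, KLK3 in C4-2B was at 3908 and 4093 CPM, and the interaction of 0.74 was also under 2-fold.

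Of the 18 luminal genes, the interaction was called toward DU145 for 6 with RANKL (2.45% of all genes), for 0 with MG63 (1.99%) and for 5 with RAW264.7 and RANKL (2.65%), and the other way for 1 (1.54%), 3 (1.1%) and 1 (1.74%). No test was made of the list as a whole. VIM was at 1539 and 1569 CPM in DU145 with RANKL and at 1238 to 1288 CPM alone, and at 12.5 and 10.9 CPM in C4-2B with RANKL and at 3.45 to 4.33 CPM alone, so that the difference between the lines was smaller with RANKL (interaction -1.24, edgeR adjusted p = 6.8e-05). The cultures with RANKL were sequenced to a lower depth than the mono-cultures without it. The MG63 co-cultures, without RANKL, had totals in a similar lower range. In DU145 EPCAM was at 12 and 20.5 CPM, ESRP1 at 0.827 and 0.437 CPM and SPDEF at 0.657 and 0.948 CPM there. Those cultures also differ by their partner cells, and a part of depth in these differences was not tested.

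**Figure D5:**
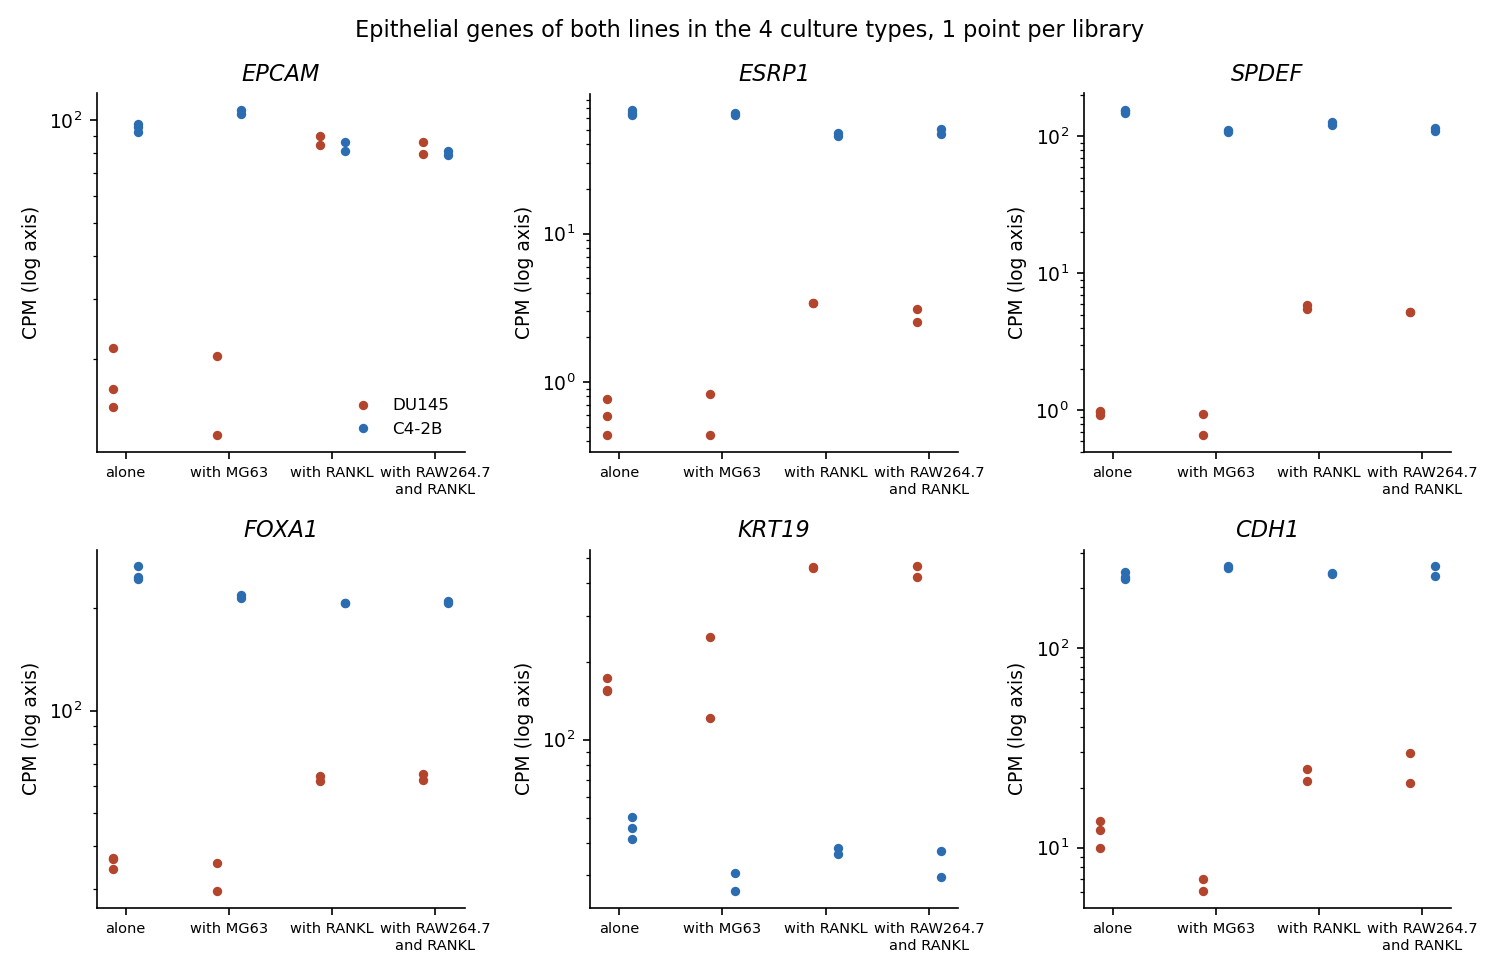
Points are single libraries, with CPM on a log axis and 4 culture types on the x axis, DU145 in red and C4-2B in blue (3 libraries per line alone, 2 in each other type). EPCAM in DU145 lies at 12 to 21.6 CPM alone and with MG63 and at 79.4 to 89.9 CPM in both culture types with RANKL, where it meets C4-2B, and ESRP1, SPDEF, FOXA1 and CDH1 in DU145 lie higher with RANKL than without it but under C4-2B.

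The series holds a second pair of an LPCa and a BPCa line grown alone, 22Rv1 and C4-2, which shares no library with the pair above, although C4-2 and C4-2B are related lines. Of the same 12764 genes, 1706 were higher in 22Rv1 (13.4%) and 1566 in C4-2 (12.3%), 25.6% together. Called the same way in both pairs were 1784 genes, 35.0% of the calls of DU145 against C4-2B and 54.5% of those of 22Rv1 against C4-2, and 417 genes were called in opposite directions. The 2 differences differed from each other for 4816 genes (37.7%, with 19.8% toward DU145 and 17.9% toward C4-2B, edgeR interaction test). HOXB13 and FOXA1 were at 104 and 277 CPM in 22Rv1, in the range of C4-2 with 129 and 260 CPM. NQO1, higher in DU145 than in C4-2B, was lower in 22Rv1 than in C4-2, at 45.7 against 523 CPM on average. KLK3 was lower in 22Rv1 too, at 56.8 CPM against 4694 CPM.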

How the data were processed

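Poly(A) RNA of each culture was sequenced on a DNBSEQ-G400. The authors quantified transcripts with kallisto, and the deposited values are estimated counts per transcript in 1 table of 36 libraries, with no normalization. Per the labels, FastQC and kallisto were used with the genome build hg19, and whether counting used strand is not given in the sources used here. The study's methods also name a step from transcripts to genes that is not in the deposited values.

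The 161149 lines held 159837 transcripts, since 2491 lines belonged to transcripts listed more than once, with identical values, and each such transcript was used once. Counts were summed by symbol (27852 genes), the 0.526 to 0.724% of counts without a symbol were left out of the tests, and gene counts were rounded. A gene entered the test when any of the 6 libraries held 100 counts or more, and it was tested with edgeR 4.0.16 (R 4.3.3, TMM, quasi-likelihood test, 1 mean per line) fitted on the 12 mono-cultures without RANKL, with Benjamini-Hochberg adjustment. The standard error is the log2 difference divided by the square root of F. The other cultures were read in 1 fit of all 36 libraries. The steps were tested on simulated data. DESeq2 1.42.0, other normalizations, filters, thresholds, a replicate block and leaving out each library were tried.

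At most 3 counts per library served as the floor, ratios against 1 to 5 counts carry exact 95% intervals, and intervals and floors cover counting error only. Replicates differed by more than sampling noise (chi-square per degree of freedom 4.96 to 5.82), and each was counted as its own sample. Promoters were matched by symbol in a RefSeq table of GRCh38.p14 for 9955 of 12764 genes tested, and transcript types are from GENCODE 29. Of 20354 genes with a principal transcript in GENCODE 29, 1532 have none in the table and 970 only some, and their levels may be understated.

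The gene lists and their members were chosen with earlier results of these data known. Genes were named by a rule: the defining members of each list, the 2 called members with the largest differences in each direction, the 8 highest genes on in only 1 line, the 5 largest differences in each direction and the 5 largest transcript shifts. Other members of the lists and genes named in the text were chosen after their values were seen. Some genes of the lists are counted in them but not reported here by name.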

Additional observations from a re-analysis of the deposited data

Results flagged for a closer look

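Among the named genes reported here, 8 were called in opposite directions in DU145 against C4-2B and in 22Rv1 against C4-2, with a difference between both contrasts that itself passed the edgeR interaction test. SYT4, a vesicle protein, differed by -8.70 (-6.93 against 1.76) and SNAI2 by -3.03. In the other sense CCN1 by 6.62, HLA-B by 6.58, NQO1 by 6.31, MSN (moesin) by 5.95, TGFB2 by 4.80 and CD68 by 2.94. The adjusted p of these interactions was 7.1e-11 or lower except for SNAI2 (7.5e-10) and TGFB2 (2.1e-08), all by edgeR.

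For the other culture types, genes reported here are given whose edgeR interaction with mono-culture was called and was either over 4-fold or came with a changed call. Genes at or under 3 counts in every mono-culture library of one line (such as CCN2, NKX2-1, PRAC1 and NDUFC2-KCTD14) were left out, since their fitted differences depend on the prior count. Genes under the count filter in the culture compared were left out too, among them BST2 and CDK6 with RANKL, with interactions of -2.63 and 2.02. With RANKL these were ESRP1 (2.98), SPDEF (2.85), EPCAM (2.50), PGK1 (1.91) and TNFRSF19 (1.81). With RAW264.7 cells and RANKL they were SPDEF (2.85), ESRP1 (2.60), EPCAM (2.47), KLK2 (2.13), PGK1 (1.75), TNFRSF19 (1.71) and AKR1C3 (-3.41). EPCAM, SPDEF, ESRP1, PGK1 and TNFRSF19 were thus in both lists, which share the mono-cultures. In C4-2B TNFRSF19 averaged 76.6 CPM alone and 39.1 with MG63, 31.6 with RANKL and 30.1 with RAW264.7 and RANKL. PGK1 averaged 196 CPM alone and 99.1, 107 and 89.8 there. These 2 were thus lower in C4-2B with MG63 too. In DU145 they averaged 16.1 and 68.8 CPM alone and 23.4 and 141 CPM with RANKL.

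In co-culture with MG63 the differences were IFIT2 (-3.38), IFIT3 (-2.82), ANXA1 (-2.19) and PGK1 (1.17). IFIT2 and IFIT3 remained higher in DU145 there, by 4.36 and 4.85 on the log2 scale against 7.78 and 7.69 alone. The largest adjusted p among the genes that met these limits in the 3 culture types was 0.0233, that of AKR1C3, by edgeR.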

How the results depend on the processing

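The counts of 2738 and 2365 genes ranged from 2695 to 2740 and from 2324 to 2388 with any 1 library left out. With the replicate number as a block they were 2766 and 2352. The libraries share only a number, since deviations of same-numbered libraries correlated at -0.00399, 0.00276 and 0.0274 and not every library correlated best with its own number. DESeq2 gave 2772 and 2314 and no filter 3939 and 3479. Scaling by the library total alone gave 2916 and 2151, moved the median of all genes by 0.09 and the share higher in DU145 from 53.7% to 57.5%.

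The genes on in only 1 line depended on their limits. The 72 in DU145 became 170 with at most 10 counts in the other line, 125 at 5 CPM, 6 at 50 CPM, 119 at 200 times the other line's level (a rule added after seeing the data), and 70 to 89 without a library. The 27 in C4-2B became 67, 46, 3, 56, and 27 to 38. The 35 transcript shifts became 159 at 30 points, 69 at 100 counts, and 34 to 37 without a library. These follow from the limits themselves.

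Of 125 named genes tested, 4 changed their call under some alternative, and those reported here lay close to the 2-fold limit: BRCA2 (-0.94 with library totals), CD68 (0.99 without DU145 replicate 2) and CDK6 (-1.12 without DU145 replicate 2). Of 1975 alternative values, 0 changed direction. With 3 libraries a line, and genes under 100 counts left out, small differences of rare transcripts were not detectable at this depth.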

Other observations

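Differences between the lines varied by chromosome when read over 11240 autosomal genes with at least 10 counts in each library. The median log2 difference was -0.01 over all of them. It was lowest for chromosomes 22 (-0.47), 15 (-0.44) and 3 (-0.33), where C4-2B was higher, and highest for chromosomes 18 (0.49), 21 (0.36) and 10 (0.31), where DU145 was higher. These are descriptions with no test, and the number of chromosome copies in these lines was not measured here.

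The CpG count of the 300-base promoters was similar on both sides, with a median of 29 for genes higher in DU145 and 27.0 for genes higher in C4-2B. It was 8.0 over the 8 matched promoters of cytokine genes higher in DU145, and 30 over the 11 of caveolae and annexin genes.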
